A study of Mus musculus with 9 samples.

Results

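A set of 10 genes known for sorting olfactory axons into glomeruli was followed in the main olfactory epithelium (MOE) of mice that lacked TAAR enhancer 2. They are Kirrel2, Kirrel3, Pcdh10, S100a5, Nrp1, Plxna1, Sema3a, Sema7a, Epha5 and Efna5. These 10 of 24421 counted genes were chosen by name, as adhesion molecules, guidance molecules and an activity-dependent gene of olfactory axons, and all 10 had enough reads to be tested. The question asked was whether their levels differed between genotypes when an enhancer of the trace amine-associated receptor (Taar) genes was missing.

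The 9 libraries came from the whole MOE of mice labelled C57BL/6 at postnatal day 14, with 3 wild-type (WT), 3 heterozygous (het, TAAR enhancer 2 +/-) and 3 homozygous (homo, TAAR enhancer 2 -/-) libraries. The deletion was made by CRISPR-Cas9 and kept as 1 line, WT and het animals were littermates of homo animals, and the labels give no sex (the study used both). Each library, made from a separate mouse, came from polyA RNA of the dissected tissue, so olfactory sensory neurons (OSNs), supporting cells, glia, stroma and blood could all contribute. In such bulk samples fewer cells of a type and less RNA per cell cannot be told apart.

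Each OSN expresses a single odorant receptor gene, and axons of OSNs with the same receptor meet in the same glomeruli of the olfactory bulb. Position along the front-to-back axis is set early by receptor-driven cAMP signalling, which is known to raise Nrp1 and lower Sema3a, so that axons sort before they reach the bulb. Local sorting comes later and depends on neural activity through the cyclic nucleotide-gated channel, with Kirrel2 and Epha5 known to respond to activity in the opposite way to Kirrel3 and Efna5. TAAR OSNs are a small fraction of all OSNs and project to their own dorsal glomeruli.

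Total counts ranged from 20527992 to 32262005 per library. The deleted element is not a gene and has no value of its own, but 4 genes were called in homo against WT and each was a Taar gene that fell (Taar3, Taar6, Taar7a and Taar9). Each of the 10 listed markers of mature OSNs was present, with a summed level of 7192 to 8287 CPM (the count scaled by edgeR to the effective depth of its library) in the 9 libraries. The WT replicate 3 library stood apart: its 6 macrophage and neutrophil markers summed to 1089 CPM against 177 to 379 CPM in the other libraries, and its 5 sustentacular cell markers summed to 2547 CPM against 4678 to 5633 CPM. Its 6 immature OSN markers were also the lowest, with a sum of 1254 CPM against 1477 to 1724 CPM. The libraries numbered 1 in each genotype also stood apart, with 20.2% of all tested genes over 1.5-fold from the libraries numbered 2 and 3 and summed fibroblast markers of 11470 to 12480 CPM against 7157 to 8807 CPM. Their basal and progenitor cell markers summed to 234 to 289 CPM against 135 to 146 CPM. For motile ciliated cell markers the sums were 506 to 552 CPM against 266 to 403 CPM. The part of either difference in the results below was not tested. For each of the 10 genes in homo against WT, values without WT replicate 3 and without the number 1 libraries are given. For het against WT and for the other gene lists they are given only in part. Leaving out the number 1 libraries keeps WT replicate 3.

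None of the 10 genes was called in any comparison, where a call needed an adjusted p-value under 0.05 and a change over 1.5-fold in the quasi-likelihood test of edgeR. Over all 19775 genes tested, the calls amounted to 0.0202% in homo against WT, 0% in het against WT and 0.00506% in homo against het. A test for any difference between genotypes, with an adjusted p-value under 0.05 and no fold limit, called 0.00506%. At an unadjusted p-value under 0.05, 1 of the 10 genes passed in homo against WT (background 3.45%), 0 passed in het against WT (1.28%), 1 passed in homo against het (0.662%) and 1 passed in the test of any genotype (1.39%). In each case with a passing gene, it was Pcdh10. In homo against WT that count moved with the libraries and the tool. It was 4 with the libraries of numbers 2 and 3 alone (Pcdh10, S100a5, Kirrel2 and Sema7a; background 6.61%). WT replicate 3, kept in that setting, was the lowest of the 9 libraries for each of those 4 genes. The count was 3 without WT replicate 2 (Pcdh10, Sema3a and Epha5; 7.16%) and 3 with the replicate number as a block (Pcdh10, Kirrel2 and Epha5; 6.61%). It was 2 without WT replicate 1 (Pcdh10 and Kirrel2; 6.34%) and without homo replicate 1 (Pcdh10 and S100a5; 4.76%). It was also 2, Pcdh10 and Kirrel2, with DESeq2 (3.84%) and with limma-voom (2.40%), and 1, Pcdh10, under each of the other alternatives. Epha5, 1 gene of the 10, passed in het against WT without WT replicate 2 (5.30%). In homo against het 0 passed without het replicate 2, het replicate 3 or homo replicate 3. DESeq2 and limma-voom also called 0 of the 10 genes in each comparison. By direction, 9 of the 10 genes had higher fitted levels in homo than in WT, 7 in het than in WT and 8 in homo than in het. The median log2 fold change of the 10 genes was 0.19 in homo against WT, beside 0.0040 over all tested genes. It was 0.12 in het against WT beside -0.0084, and 0.12 in homo against het beside 0.0034. Without WT replicate 3 the median in homo against WT was 0.11 with 8 of 10 higher, and in het against WT it was 0.016 with 7 of 10 higher. With the libraries of numbers 2 and 3 alone, that is without the number 1 libraries, it was 0.25 with 9 of 10 higher and 0.079 with 7 of 10 higher.

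**Figure D1:**
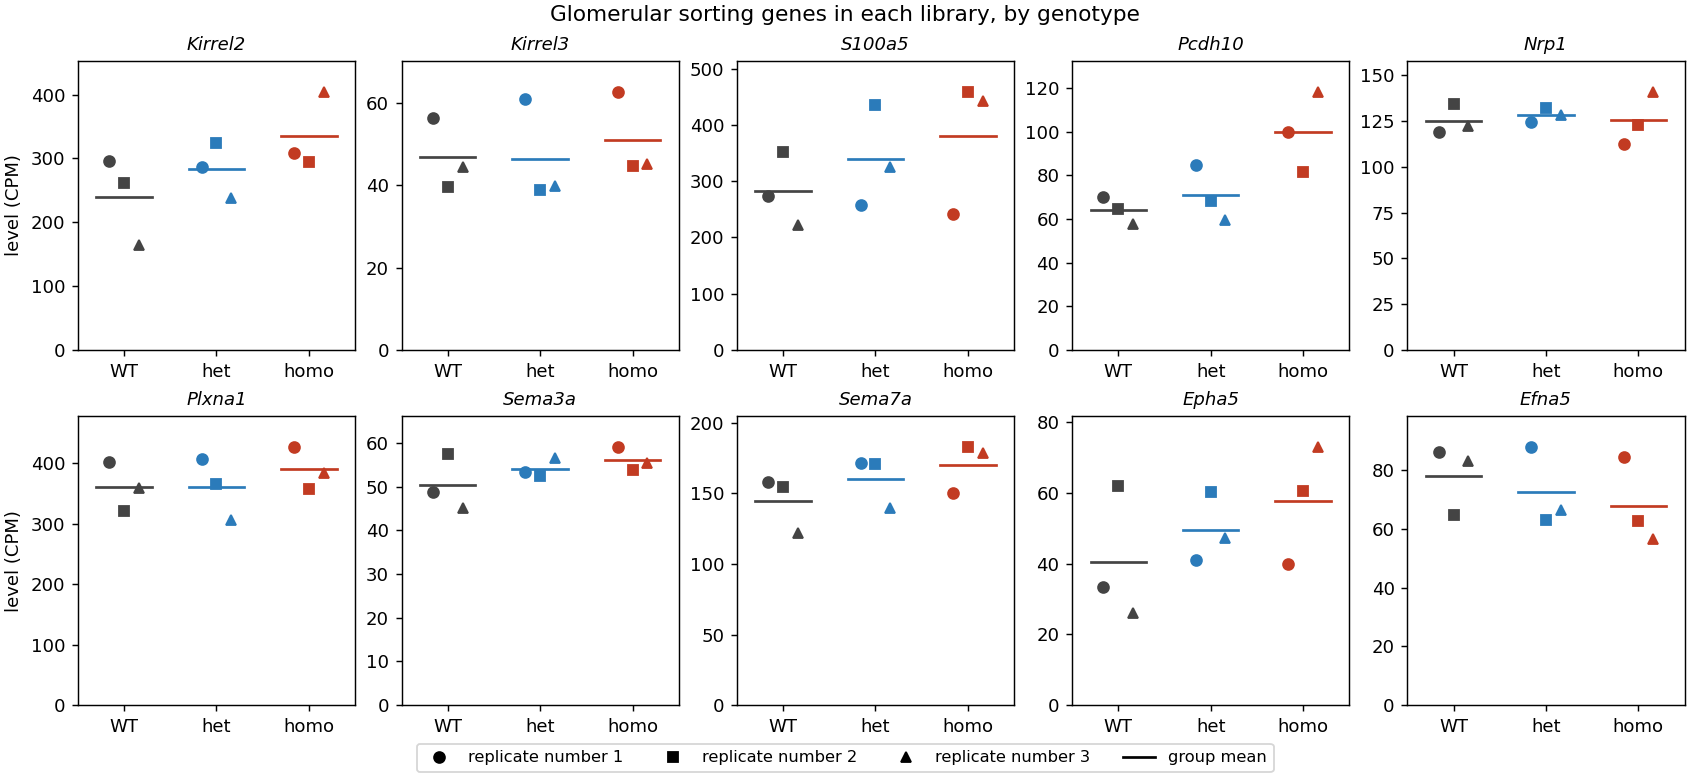
Level of each of the 10 genes (y axis, CPM, starting at 0) in the 3 WT, 3 het and 3 homo libraries (x axis); marker shapes give the replicate number and lines the group means. Pcdh10 is the gene whose homo libraries all lie above the WT libraries, while the other 9 genes overlap between genotypes.

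Pcdh10 encodes a delta protocadherin, an adhesion molecule that binds its own kind on neighbouring axons. Its level was 69.9, 64.5 and 57.8 CPM in WT, 84.9, 68.4 and 59.6 CPM in het, and 99.8, 81.4 and 118 CPM in homo (replicates 1, 2 and 3). Every homo library lay above every WT library, het overlapped both groups, and homo replicate 3 was the highest of the 9. In homo against WT the fold was 1.56 (95% interval 1.21 to 2.01, log2 0.64 with SE 0.16), with an unadjusted p of 0.00355 and an adjusted p of 1, the 9th smallest p of 19775. Non-overlap with homo higher was seen in 2.97% of all genes and with homo lower in 2.71%. In homo against het the fold was 1.41 (1.09 to 1.82, unadjusted p 0.0148, adjusted p 1), and in het against WT it was 1.11 (0.856 to 1.43, adjusted p 1). The homo library was the higher in each of the 3 replicate numbers, by log2 0.51, 0.33 and 1.02 over WT and by 0.23, 0.25 and 0.98 over het. Over WT this follows from the lack of overlap and adds nothing to it. Same-numbered libraries are not known to be pairs, here or for the genes below. Without WT replicate 3, the lowest library, the log2 fold change was 0.56, without homo replicate 3 it was 0.51, and without the number 1 libraries it was 0.70. Over every alternative it lay between 0.51 and 0.76, with adjusted p-values from 0.675 to 1. Set against the mature OSN markers of the same library, Pcdh10 was 0.783% to 0.971% of their sum in WT, 0.827% to 1.10% in het and 0.982% to 1.55% in homo, so the homo libraries stayed above WT on that scale too.

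Pcdh10 (ENSMUSG00000049100.15) lies on mm10 chromosome 3 from 45378398 to 45435623 on the plus strand, and none of the 10 genes is on the chromosome of the Taar cluster. Because its homo libraries did not overlap WT, the 140 bases before its start site, from RefSeq on GRCm38.p6 (chr3:45378258-45378397, plus strand), are printed with the letters TGACG, the core of the cAMP response element, in capitals:
Pcdh10: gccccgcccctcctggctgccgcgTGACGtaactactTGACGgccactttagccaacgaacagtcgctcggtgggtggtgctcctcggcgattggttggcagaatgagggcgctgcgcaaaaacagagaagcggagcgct
The motif began 116 and 103 bases before the start. For comparison, the same stretch is given for S100a5, the gene best known to follow OSN activity (chr3:90608382-90608521, plus strand), which holds no TGACG on either strand:
S100a5: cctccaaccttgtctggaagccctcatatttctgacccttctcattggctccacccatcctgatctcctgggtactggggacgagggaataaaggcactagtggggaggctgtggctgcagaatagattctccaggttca
RefSeq promoter windows, from 250 bases before to 50 bases after the start, were matched for 8 of the 10 genes; Plxna1 and Kirrel3 were not matched. TGACG on either strand was in 20.8% of all 32851 windows and in 2 of the 8, Pcdh10 and Sema7a. The full palindrome TGACGTCA, which contains TGACG, was in 1.79% of all windows and in 0 of the 8. CCCNNGGG, the core that Ebf factors of OSNs bind, was in 13.7% of all windows and in Kirrel2 alone of the 8, and TAATTA, a homeodomain core, was in 5.29% and in Epha5 alone. The matches after the start of Sema7a and Kirrel2 and before the start of Epha5 read, in the sense strand with the motif in capitals:
Sema7a: gtcgctccggggctgcgggaTGACGcctcc
Kirrel2: cgacccgcaggCCCACGGGagcctgagctc
Epha5: attctttacccTAATTAtcccgggaggaag
The Kirrel2 window held a second match, CCCCAGGG, which began 43 bases after the start. A match describes the letters only. The windows differed widely in composition, from 41.3% G and C with 2 CpG in Sema3a to 73.3% with 38 CpG in Efna5, beside medians of 52.7% and 7 CpG over all windows. The Sema3a window is that of a start site at base 13396784, inside the gene as annotated below, and not that of its first base. The start sites used for Nrp1 (base 128359073) and Kirrel2 (base 30457515) also lie inside the annotated genes.

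Kirrel2 and Kirrel3 encode immunoglobulin-type adhesion molecules that bind their own kind and are known from complementary sets of OSN axons. Kirrel2 (ENSMUSG00000036915.17) lies on mm10 chromosome 7 from 30447534 to 30457690 on the minus strand. It was at 295, 261 and 164 CPM in WT, 287, 324 and 238 CPM in het, and 308, 294 and 404 CPM in homo. The lowest value was WT replicate 3 and the highest homo replicate 3, and the genotypes overlapped. Homo exceeded WT by a fold of 1.40 (95% interval 0.990 to 1.97, unadjusted p 0.0564, adjusted p 1). Homo was higher within each of the 3 replicate numbers, but by log2 0.059 and 0.17 in numbers 1 and 2 and by 1.30 in number 3. The log2 fold change went from 0.48 to 0.26 (SE 0.17) without WT replicate 3, and to 0.71 (unadjusted p 0.0376, adjusted p 0.685) without the number 1 libraries. In het against WT the fold was 1.18 (0.834 to 1.66) and in homo against het it was 1.19 (0.841 to 1.67), both with an adjusted p of 1. Without WT replicate 3 the log2 fold change in het against WT went from 0.23 to 0.015.

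Kirrel3 (ENSMUSG00000032036.15) lies on mm10 chromosome 9 from 34485894 to 35036716 on the plus strand. It was at 56.4, 39.7 and 44.5 CPM in WT, 60.9, 38.8 and 39.7 CPM in het, and 62.7, 44.8 and 45.3 CPM in homo. The high value in each genotype was the library numbered 1, and the genotypes overlapped. Number 1 exceeded numbers 2 and 3 by log2 0.51 (SE 0.063) on average, and 22.1% of all genes were likewise above in every genotype and 21.4% below. The homo to WT fold was 1.09 (0.776 to 1.52, adjusted p 1), and homo was higher within each of the 3 numbers, by log2 0.025 to 0.17. Its log2 value turned from 0.12 to -0.054 without homo replicate 1. It was 0.094 without the number 1 libraries and 0.077 without WT replicate 3. In het against WT the fold was 0.992 (0.708 to 1.39) and in homo against het 1.10 (0.782 to 1.54).

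The ratio of Kirrel2 to Kirrel3, taken within each library, ran from 3.69 in WT replicate 3 to 8.92 in homo replicate 3. The log2 ratio of the 3 libraries of a genotype averaged 2.32 ± 0.42 (SD) for WT, 2.61 ± 0.41 for het and 2.71 ± 0.43 for homo. The difference of homo from WT was 0.39, with an exact two-sided permutation p of 0.5, where 3 against 3 cannot go below 0.1. The groups overlapped. Leaving out a library gave differences from 0.17 without WT replicate 3, and 0.18 without homo replicate 3, to 0.59 without WT replicate 2 and 0.60 without homo replicate 1. The libraries of numbers 2 and 3 alone gave 0.63.

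S100a5, a calcium-binding protein whose transcript is known to be high in active OSNs, had the highest level per length of the 10 genes. S100a5 (ENSMUSG00000001023.10) lies on mm10 chromosome 3 from 90608523 to 90611780 on the plus strand. It was at 274, 351 and 222 CPM in WT, 257, 435 and 325 CPM in het, and 241, 459 and 442 CPM in homo. Libraries numbered 1 and WT replicate 3 were low, the number 2 libraries and homo replicate 3 were high, and every genotype overlapped with the others. Homo libraries averaged 1.35 times the WT level (0.872 to 2.09, adjusted p 1), with homo lower by log2 0.18 in number 1 and higher by 0.38 and 0.99 in numbers 2 and 3. Its level in the libraries numbered 1 differed from that in numbers 2 and 3 by log2 -0.50 (SE 0.18). The log2 fold change went from 0.43 to 0.27 without WT replicate 3, and to 0.65 (unadjusted p 0.0314, adjusted p 0.685) without the number 1 libraries. Its log2 value in het against WT went from 0.26 to 0.11 without WT replicate 3. Over alternatives its log2 fold change in homo against WT stayed between 0.27 and 0.67.

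Sema3a encodes a secreted repellent, Nrp1 its binding receptor and Plxna1 the plexin that signals with Nrp1. Nrp1 (ENSMUSG00000025810.9) lies on mm10 chromosome 8 from 128358604 to 128503363 on the plus strand. It was at 119, 134 and 122 CPM in WT, 125, 132 and 129 CPM in het, and 113, 123 and 141 CPM in homo. It was the steadiest of the 10 genes, with a ratio of 1.25 between its highest and lowest library. The log2 fold change was 0.0040 in homo against WT (95% interval -0.22 to 0.23), 0.038 in het against WT (-0.19 to 0.26) and -0.034 in homo against het (-0.26 to 0.19), each with an adjusted p of 1. Each interval lay inside 1.5-fold in either direction. The sign in homo against WT differed between scalings, with log2 values from -0.081 to 0.077 over all alternatives. The value was -0.022 without WT replicate 3 and 0.035 without the number 1 libraries. Libraries numbered 1 were the lowest in every genotype, as for 21.4% of all genes, and differed from numbers 2 and 3 by log2 -0.13 (SE 0.060).

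Plxna1 (ENSMUSG00000030084.11) lies on mm10 chromosome 6 from 89316314 to 89362620 on the minus strand. It was at 401, 321 and 358 CPM in WT, 408, 365 and 307 CPM in het, and 426, 358 and 384 CPM in homo. The library numbered 1 was the highest in each genotype, by log2 0.24 (SE 0.071) over the other numbers. The homo to WT fold was 1.08 (0.878 to 1.33, adjusted p 1) and homo was higher within each of the 3 numbers, by log2 0.088 to 0.16. As a log2 fold change this was 0.11, or 0.10 without WT replicate 3 and 0.12 without the number 1 libraries. Between het and WT the log2 fold change was -0.00029 (-0.30 to 0.30). Of its exon bases, 10.7% are shared with Gm26811 on the opposite strand, and the strand setting of the counting is not given in the sources used here.

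Sema3a (ENSMUSG00000028883.17) lies on mm10 chromosome 5 from 13125414 to 13602565 on the plus strand. It was at 48.8, 57.6 and 45.0 CPM in WT, 53.4, 52.5 and 56.6 CPM in het, and 59.1, 53.8 and 55.4 CPM in homo. The 9 values were close, with WT replicate 3 the lowest and homo replicate 1 the highest. The homo to WT fold was 1.11 (0.940 to 1.31, adjusted p 1), and the het to WT fold 1.07 (0.909 to 1.27). Without WT replicate 3 the log2 fold change in homo against WT went from 0.15 to 0.065, and without WT replicate 2 it was 0.25. Without the number 1 libraries it was 0.083. The Nrp1 to Sema3a ratio ran from 1.91 in homo replicate 1 to 2.72 in WT replicate 3. Its log2 value averaged 1.31 ± 0.11 (SD of 3 libraries) for WT, 1.24 ± 0.075 for het and 1.15 ± 0.21 for homo, and homo and WT differed by -0.16 with an exact two-sided permutation p of 0.4. The difference was -0.045 without homo replicate 1, -0.094 without WT replicate 3 and -0.25 without homo replicate 3, where p was 0.1, the smallest this permutation test can give. With the libraries of numbers 2 and 3 alone it was -0.060. Among all pairs of the 10 genes, Nrp1 and Sema3a kept the tightest ratio over the 9 libraries, with an SD of 0.14 on the log2 scale. They were also the least spread of the 10, with SDs of 0.097 and 0.12. A tight ratio alone therefore does not show that their levels moved together.

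Sema7a, a membrane-anchored semaphorin that OSN axons carry to mitral cell dendrites, was at 158, 154 and 122 CPM in WT, 171, 171 and 139 CPM in het, and 150, 183 and 178 CPM in homo. WT replicate 3 was again the lowest, and the groups overlapped. Sema7a (ENSMUSG00000038264.8) lies on mm10 chromosome 9 from 57940112 to 57962865 on the plus strand. For homo against WT the fold was 1.18 (0.954 to 1.45, adjusted p 1), with homo lower by log2 0.073 in number 1 and higher by 0.24 and 0.55 in the others. The log2 value went from 0.24 to 0.12 without WT replicate 3, and to 0.38 (unadjusted p 0.0349, adjusted p 0.685) without the number 1 libraries. In het against WT the fold was 1.11 (0.899 to 1.37), and the log2 value went from 0.15 to 0.033 without WT replicate 3.

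Epha5 encodes a receptor for ephrin-A ligands and Efna5 a ligand of that kind. Epha5 (ENSMUSG00000029245.16) lies on mm10 chromosome 5 from 84054761 to 84417382 on the minus strand. It was at 33.3, 62.1 and 26.2 CPM in WT, 41.2, 60.4 and 47.4 CPM in het, and 39.9, 60.7 and 72.9 CPM in homo. It was the most spread of the 10 genes, with a ratio of 2.79 between homo replicate 3 and WT replicate 3, and the genotypes overlapped. Between homo and WT the fold was 1.43 (0.859 to 2.37, adjusted p 1). Within number 3 homo exceeded WT by log2 1.46, against 0.26 in number 1 and -0.033 in number 2. The libraries numbered 1 differed from numbers 2 and 3 by log2 -0.51 (SE 0.23). Without them the log2 fold change of homo against WT was 0.59. Leaving out WT replicate 3 gave a log2 fold change of 0.27, and leaving out WT replicate 2 gave 0.96 (unadjusted p 0.00741, adjusted p 0.675). For het against WT the log2 value of 0.29 went to 0.047 without WT replicate 3 and to 0.74 without WT replicate 2.

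Efna5 (ENSMUSG00000048915.12) lies on mm10 chromosome 17 from 62604184 to 62881317 on the minus strand. It was at 86.1, 64.6 and 83.0 CPM in WT, 87.8, 63.1 and 66.4 CPM in het, and 84.3, 62.8 and 56.6 CPM in homo. Among the 10 genes it alone had a lower fitted level in homo than in WT, at a fold of 0.872 (0.653 to 1.17, adjusted p 1), apart from Nrp1, whose sign turned with the scaling. Homo was the lower within each of the 3 numbers, by log2 0.030, 0.040 and 0.55. The libraries numbered 1 exceeded the others by log2 0.39 (SE 0.088). Leaving out homo replicate 3 gave a log2 fold change of -0.073, and leaving out homo replicate 1 gave -0.38. Leaving out the number 1 libraries gave -0.31, and leaving out WT replicate 3 gave -0.16.

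The Epha5 to Efna5 ratio varied between libraries more than that of any other pair of the 10 genes, with an SD of 0.70 on the log2 scale. The ratio was 0.387, 0.961 and 0.315 in WT, 0.469, 0.956 and 0.713 in het, and 0.474, 0.966 and 1.29 in homo. It was low in the libraries numbered 1 and in WT replicate 3, and nearly the same in the number 2 libraries of every genotype. Homo differed from WT by 0.77 on the log2 scale with an exact two-sided permutation p of 0.2. The difference was 0.46 without WT replicate 3 or homo replicate 3, 1.18 without homo replicate 1 and 1.25 without WT replicate 2, and 1.01 with the libraries of numbers 2 and 3 alone.

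**Figure D2:**
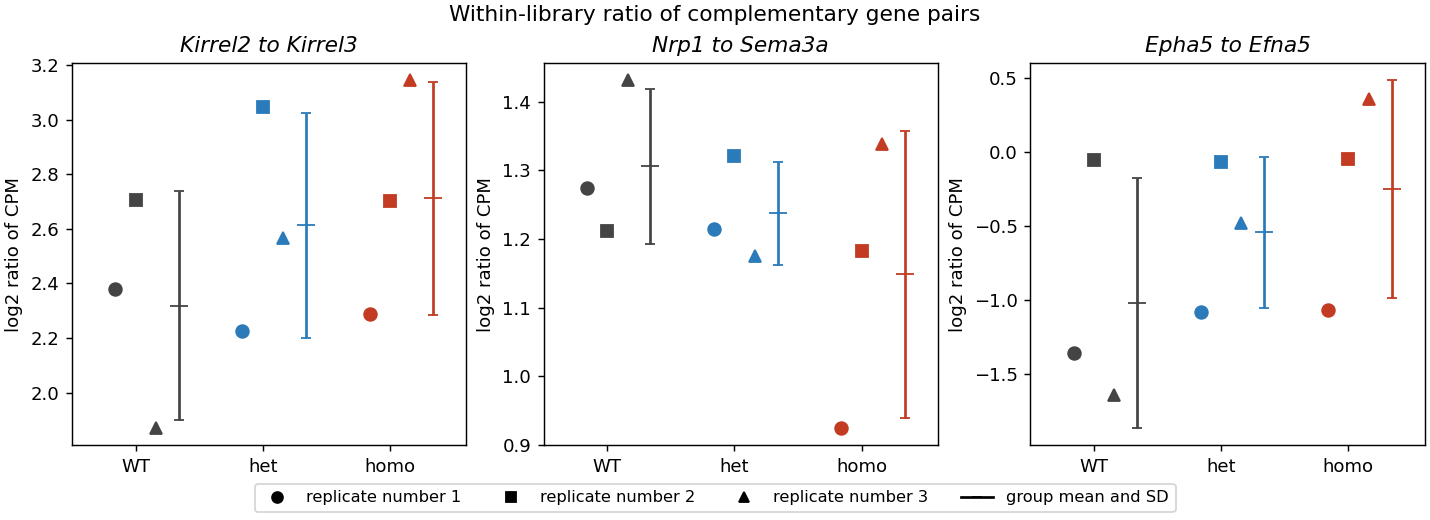
Log2 ratio of CPM (y axis) of Kirrel2 to Kirrel3, Nrp1 to Sema3a and Epha5 to Efna5 in each library by genotype (x axis); marker shapes give the replicate number, and the bars beside them the group mean and SD of 3 libraries. The genotypes overlap in each ratio, and Epha5 to Efna5 sits near 0 in the number 2 libraries and from -1.36 to -1.07 in the number 1 libraries.

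**Figure D3:**
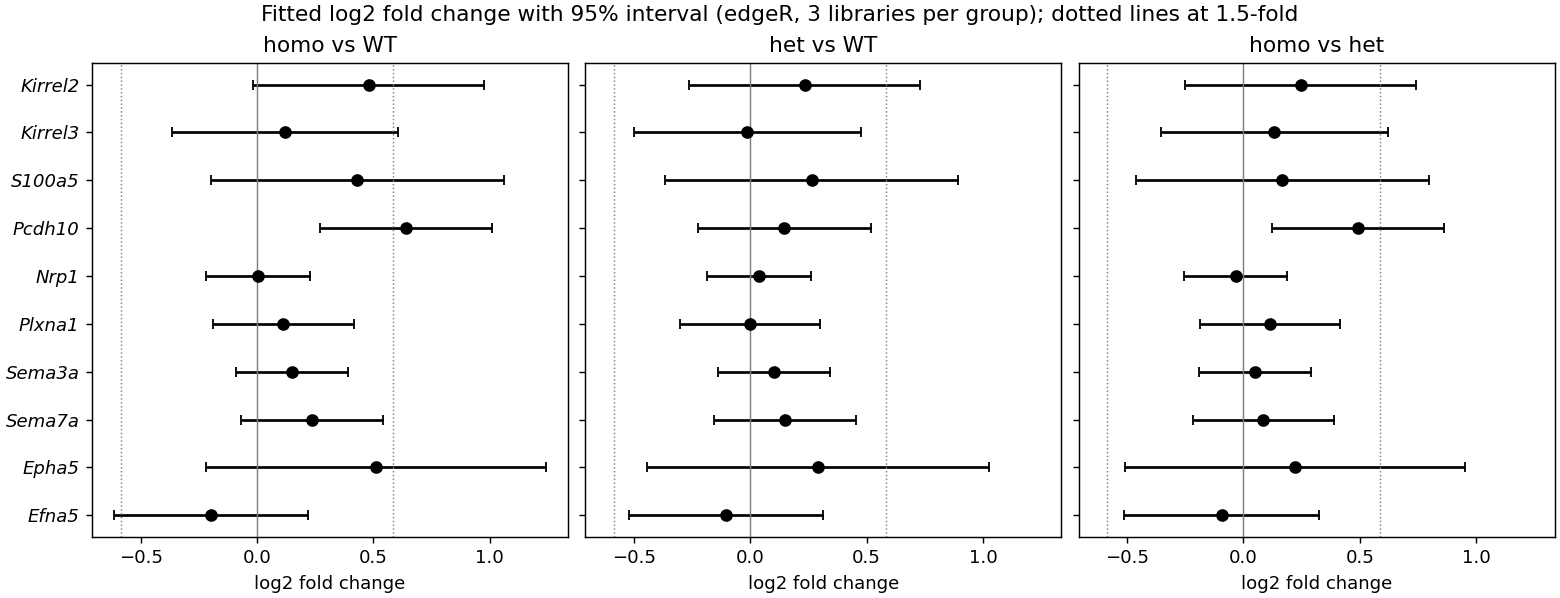
Fitted log2 fold change (x axis) of each gene (y axis) in the 3 comparisons; bars are 95% intervals, dotted lines mark 1.5-fold in either direction. The Pcdh10 interval lies above 0 in homo against WT and in homo against het; the other intervals include 0.

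In homo against WT the 95% interval lay inside 1.5-fold in both directions for 4 of the 10 genes (Nrp1, Plxna1, Sema3a and Sema7a). In het against WT this held for 7 genes, the other 3 being Kirrel2, S100a5 and Epha5, and in homo against het for 5. Apart from Pcdh10, no gene was without overlap between groups in homo against WT. In het against WT 0 of the 10 genes had non-overlapping groups (background 2.01% with het higher and 1.95% lower), and in homo against het 0 of 10 (2.35% with homo higher and 1.81% lower).

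**Figure D4:**
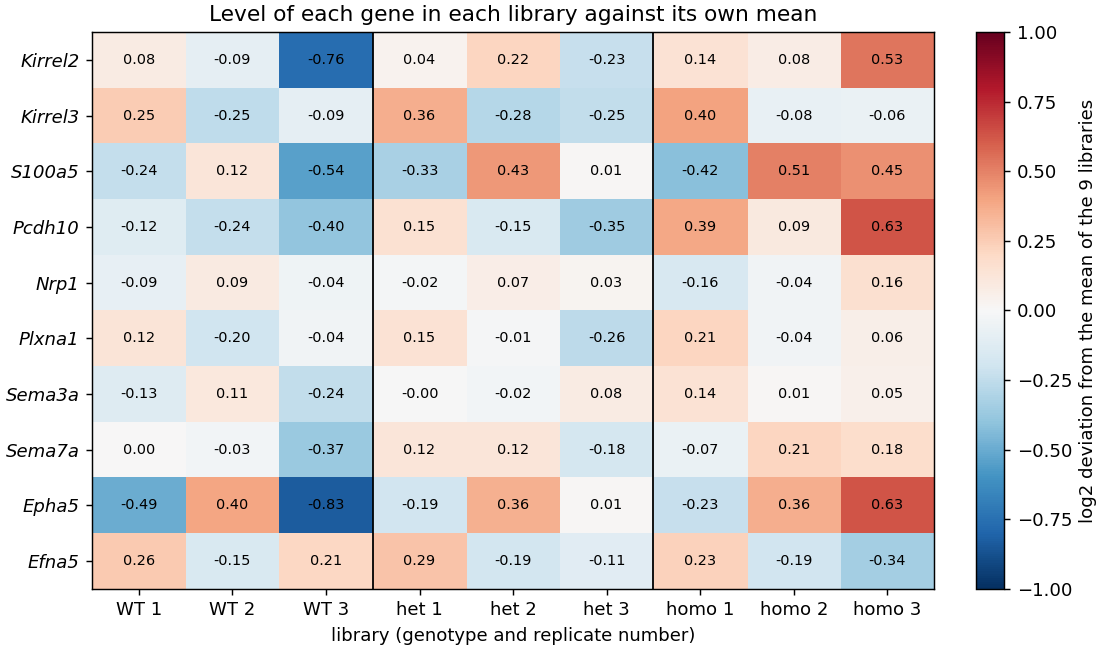
Log2 deviation of each gene (rows) from its own mean over the 9 libraries (columns, by genotype and replicate number); red is above and blue below the mean. WT replicate 3 holds the lowest values of Kirrel2 (-0.76) and Epha5 (-0.83), and the number 1 libraries are above the mean for Kirrel3, Plxna1 and Efna5.

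WT replicate 3 was the lowest of the 9 libraries for 6 of the 10 genes (Kirrel2, S100a5, Pcdh10, Sema3a, Sema7a and Epha5), beside 16.8% of all tested genes, and the highest for 0 of the 10, beside 21.1%. Compared with genes of at least 5 CPM, the 10 genes differed in how much they varied over the 9 libraries. The SD of the log2 level was 0.48 for Epha5, 0.40 for S100a5, 0.36 for Kirrel2 and 0.35 for Pcdh10, and between 88.5% and 95.1% of 13202 genes had a smaller SD than each of these. It was 0.12 for Sema3a and 0.097 for Nrp1, where 27.7% and 15.9% of genes had a smaller SD.

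On a per-length scale (CPM per kilobase of exon, mean of 9 libraries), the order was S100a5 at 773, Kirrel2 at 72.6, Sema7a at 48.1, Plxna1 at 40.9, Efna5 at 18.0, Nrp1 at 12.9, Kirrel3 at 7.45, Pcdh10 at 4.92, Sema3a at 3.86 and Epha5 at 2.95. The range over libraries separated S100a5 from Kirrel2, Plxna1 from Efna5 and Nrp1 from Kirrel3. Other neighbours in this order overlapped in range and are not separated.

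By a fixed measure of likeness, the SD of the log2 ratio over the 9 libraries, the 3 genes closest to S100a5 among 13201 others were Olfr1509 (SD 0.096), Ces1d (0.12) and Dcpp1 (0.12). Those closest to Kirrel2 were Gm10548 (0.13), Tac4 (0.13) and 5730403I07Rik (0.14). Both sets were low in WT replicate 3: Ces1d was at 338 CPM there and at 403 to 649 CPM in the other libraries, and Tac4 was at 18.7 CPM against 26.7 to 41.0 CPM.

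Of 86 other genes of the same pathways, 85 were tested and 0 were called in any comparison by edgeR, DESeq2 or limma-voom. At an unadjusted p under 0.05 there were 2 in homo against WT, Lrrc3b and Junb, or 2.35% beside 3.45% of all tested genes. In het against WT (1.28% of all) and in homo against het (0.662%) there were 0. Without WT replicate 3 there were also 0 in homo against WT (1.73%). The median log2 fold change of the 85 genes was 0.0036 in homo against WT, 0.024 in het against WT and -0.0022 in homo against het. Homo was higher than WT for 44 of the 85, beside 10131 of 19775 tested genes. When the mature OSN markers set the library size it was higher for 30 of the 85, beside 6466 of 19775.

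Among class 3 semaphorins and their receptors, 7 of 14 genes had higher levels in homo than in WT and 7 lower, with log2 values from -0.12 to 0.20. Nrp2, the receptor of the dorsal-to-ventral axis, was at 0.074 (SE 0.15), its ligand Sema3f at -0.12 (SE 0.14), and Plxna3, the gene of the list with the smallest p, at 0.20 (SE 0.18). The Sema7a receptors Plxnc1 and Itgb1 were at -0.27 (SE 0.20) and -0.17 (SE 0.13), and all 3 listed receptors had lower fitted levels in homo. Plxnc1 and Itgb1 were each highest in WT replicate 3, at 22.4 and 421 CPM, the library with the high macrophage and neutrophil markers. In the ephrin-A and EphA list 5 of 13 tested genes were higher and 8 lower, with Efna1 at -0.48 (SE 0.26) the smallest p. In the ephrin-B and EphB list 5 of 8 were higher, with Ephb4 at -0.17 (SE 0.23). Adjusted p-values were 1 for each of these genes. WT replicate 3 was also the highest library for Sema3f (101 CPM against 66.7 to 79.2 CPM) and Efna1 (23.3 CPM against 10.4 to 18.8 CPM). Fold changes without that library are not given here for the genes named in this paragraph.

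Of the adhesion families, the third paralogue, Kirrel, was at log2 -0.041 (SE 0.12) in homo against WT, and nephrin (Nphs1), a binding partner of Kirrel in the kidney, at 0.44 (SE 0.27). Among 10 delta protocadherins 8 were higher in homo than in WT with a median of 0.073, and apart from Pcdh10 the smallest p belonged to Pcdh11x at 0.23 (SE 0.14). The Slit and Robo list had 3 of 5 higher, with Robo2, a receptor for Slit repellents, at 0.11 (SE 0.13). Of 10 other axon adhesion molecules 7 were higher, with Ncam2 at 0.20 (SE 0.16) and L1cam at 0.11 (SE 0.084). Of 13 genes of the cAMP cascade 9 were higher with a median of 0.030, and Adcy3, the adenylyl cyclase of OSN cilia, was at 0.094 (SE 0.10). Each had an adjusted p of 1. WT replicate 3 was the lowest library for Ncam2 (72.4 CPM against 111 to 127 CPM) and Robo2 (146 CPM against 169 to 208 CPM). It was also the lowest for Nphs1 (23.7 CPM against 34.5 to 55.2 CPM) and Pcdh11x, and the highest for Kirrel. Fold changes of these genes without that library are not given here.

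Of 5 genes known to follow OSN activity (S100a5, Kirrel2, Pcp4l1, Lrrc3b and Rasgrp4), all 5 were higher in homo than in WT, beside 10131 of 19775 tested genes. Of the 5, 0 were called and the median log2 fold change was 0.43. The largest was that of Rasgrp4, at 0.69 (SE 0.34), or 0.51 without WT replicate 3. Lrrc3b was at 44.6, 41.4 and 33.0 CPM in WT, 42.2, 42.2 and 41.6 CPM in het, and 48.1, 47.1 and 55.1 CPM in homo. The Lrrc3b groups did not overlap in homo against WT, as for 2.97% of all genes with homo higher. Its log2 fold change was 0.34 (SE 0.13, unadjusted p 0.0241, adjusted p 1), or 0.21 (unadjusted p 0.0760) without WT replicate 3. Pcp4l1 was at 152 CPM in WT replicate 3 and at 262 to 378 CPM in the other libraries, and its log2 fold change went from 0.26 to -0.038 without that library. Over the 5 genes the median was 0.26 without WT replicate 3, with 4 of 5 higher and 0 at an unadjusted p under 0.05 (1.73% of all genes). With the libraries of numbers 2 and 3 alone, which keep WT replicate 3, it was 0.65. In that setting 5 of 5 were higher and 4 had an unadjusted p under 0.05 (6.61% of all genes). DESeq2 put 3 of the 5 under that p (3.84%) and limma-voom 2 (2.40%).

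The immediate early genes, which are transcribed within minutes of stimulation in many cell types, pointed the other way. Of 10 genes, 9 were lower in homo than in WT with a median of -0.41 and 0 called. Junb was at 22.3, 14.9 and 77.7 CPM in WT and at 20.5, 14.6 and 10.6 CPM in homo, a log2 fold change of -1.33 (SE 0.55, unadjusted p 0.0407, adjusted p 1). WT replicate 3 was its highest library, as it was for Fos (36.3 CPM against 6.02 to 19.7 CPM) and Egr1 (47.4 CPM against 15.9 to 33.1 CPM). Without WT replicate 3, Junb was at -0.30, Fos at 0.090 and Egr1 at 0.30, and 5 of 10 were lower with a median of 0.00017. With the libraries of numbers 2 and 3 alone, which keep WT replicate 3, 9 of 10 were lower with a median of -0.61.

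**Figure D5:**
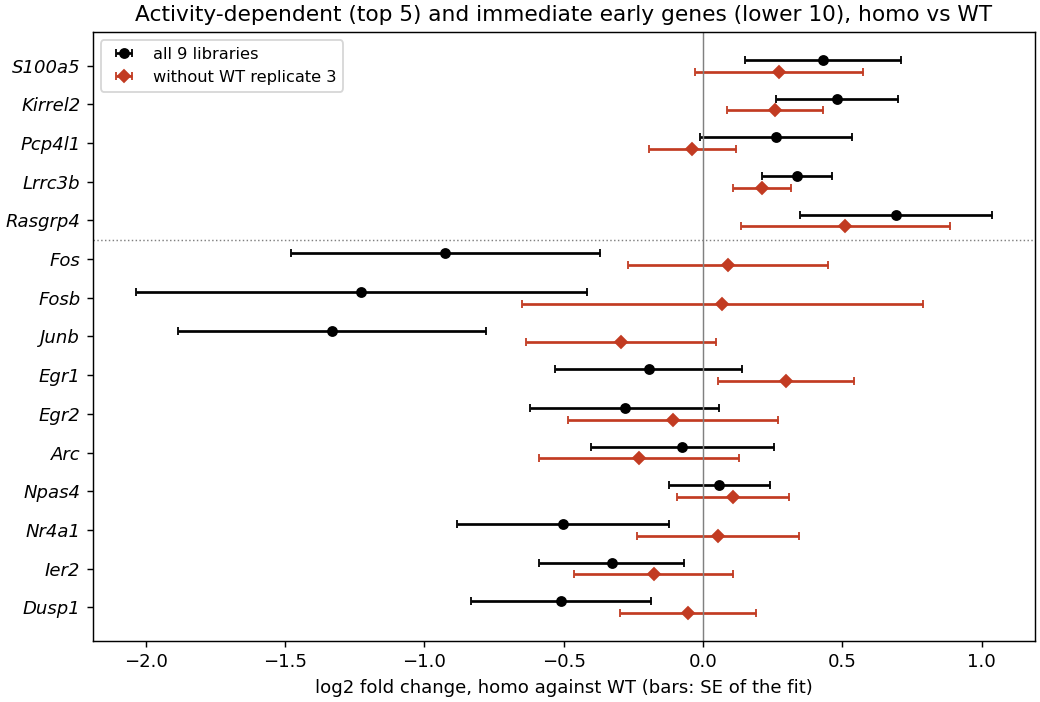
Log2 fold change of homo against WT (x axis) for the 5 activity-dependent genes (top) and the 10 immediate early genes (below), with all 9 libraries (black circles) and without WT replicate 3 (red diamonds); bars are SE. The median of the immediate early genes goes from -0.41 to 0.00017 and that of the activity-dependent genes from 0.43 to 0.26.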

How the data were processed

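The authors deposited raw counts per gene symbol, made with HISAT2 2.1.0 (mm10) and featureCounts (Subread 1.6.2) from polyA-selected directional libraries, and a signal, the same counts divided by DESeq2 1.20.0 size factors. The annotation and the handling of reads shared between genes are not given in the sources used here. Raw counts were tested in edgeR 4.0.16 (R 4.3.3; quasi-likelihood F test, TMM scaling), with 1 spread estimate for the 9 libraries, and genes with at least 10 counts in all. p-values were Benjamini-Hochberg adjusted over 19775 genes. CPM use the TMM-scaled library size, intervals are 95%, and pair ratios add 0.5 CPM. DESeq2 1.42.0 and limma 3.58.1 (voom) were alternatives. The test was checked on simulated data. Exon lengths and coordinates are from GENCODE on GRCm38.

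The members and lists were chosen with earlier results of these data known. Named from the lists were 10 fixed partners and the gene of smallest p in each list; for S100a5 and Kirrel2, the 3 genes of closest pattern were also named. Fos, Egr1 and Rasgrp4 were named, and the list medians without WT replicate 3 were added, after the values were seen. Replicates are separate mice according to the study. Deviations of same-numbered libraries correlated at 0.458 to 0.682 between WT and het and at 0.195 to 0.807 between het and homo. Between WT and homo the correlations were 0.532 in number 1, 0.320 in number 2 and -0.0854 in number 3. Because the number 1 libraries stood apart in every genotype, these correlations cannot decide whether same-numbered libraries were paired.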

Additional observations from a re-analysis of the deposited data

How the results depend on the processing

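Of the recomputed values 683 were kept and in 29 the sign turned, and 0 of the 10 genes were called under any alternative. A fold change was kept if its direction and its side of the threshold were. A count of called genes was kept if it stayed at 0. A difference of a pair ratio was kept if it moved by less than the pooled SD of homo and WT. Nrp1 in homo against WT was -0.0037 with DESeq2 size factors, -0.063 with mature OSN markers as library size, -0.0028 with no filter, -0.0038 with DESeq2 and -0.00039 with limma-voom. Kirrel3 in het against WT was 0.0099 with library totals. Plxna1 in het against WT was 0.00019 with DESeq2 size factors, 0.023 with library totals, 0.00046 with filterByExpr and 0.00023 with DESeq2. With the libraries of numbers 2 and 3 alone, Nrp1 and Sema3a in homo against het were 0.0095 and -0.0077.

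Leaving out each library in turn, the log2 fold change in homo against WT ran from -0.054 to 0.29 for Kirrel3 and from -0.081 to 0.077 for Nrp1. In het against WT it ran from -0.25 to 0.16 for Kirrel3, from -0.0013 to 0.26 for Pcdh10 and from -0.099 to 0.10 for Plxna1. In homo against het it ran from -0.049 to 0.38 for Kirrel3, from -0.12 to 0.033 for Nrp1, from -0.0070 to 0.16 for Sema7a and from -0.28 to 0.068 for Efna5. The causes were not tested. With the replicate number as a block, Pcdh10 in homo against WT was 0.64 and in homo against het 0.50, and the block changed no call. With mature OSN markers as library size 8 of the 10 genes were higher in homo than in WT, and the median of all genes was -0.064. Over all genes, homo against WT had 4 calls, 6 with DESeq2 and 1 with limma-voom, and homo against het had 1, 5 and 1.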

Other observations

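The 4 globin genes among the listed markers (Hba-a1, Hba-a2, Hbb-bs and Hbb-bt) were listed at 0 in all 9 libraries. How reads shared between near-identical gene copies were counted is not given in the sources used here, so a listed 0 does not show that their transcripts were absent.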
